A study of Mus musculus with 12 samples.

Results

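The genes of MHC class I and class II antigen presentation were followed in total heart RNA of 12 male mice (adult, C57Bl/6J), read on Illumina bead arrays with 1 array per heart. The members were 10 genes: H2-K1, H2-D1, H2-T23, B2m and Nlrc5 for class I, and H2-Aa, H2-Ab1, H2-Eb1, Cd74 and Ciita for class II. Every probe that the platform annotation assigns to 1 of these symbols was taken, which gave 24 of the 45281 probes of the table, and 20 of the 24 passed the detection filter, at least 1 for each gene. In the series a deletion of VEGFR1 (gene Flt1) was crossed with 1 of 2 adeno-associated viruses (AAV), encoding VEGF-B or a scrambled control. The deletion was made in adult Cdh5-Cre-ERT2; Flt1 flox/flox mice by tamoxifen, so Cre was driven by the promoter of an endothelial gene. VEGF-B, a ligand of VEGFR1, was meant to be overexpressed in the heart from a virus given into the peritoneum. Of the 4 groups, WT_Scramble (n = 3) and WT_VEGFB (n = 2) were wild type and received the scrambled and the VEGF-B virus respectively. VEGFR1del_Scramble (n = 3) and VEGFR1del_VEGFB (n = 4) were labelled as deleted and received the same viruses in that order, and 1 library goes against that label, as described below. All animals therefore carried a virus, and the labels do not say whether the wild-type mice carried Cre or received tamoxifen.

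Class I molecules are found on nearly all nucleated cells and show peptides made inside the cell to CD8 T cells. Each is a heavy chain (H2-K1, H2-D1, or the non-classical H2-T23) held together with beta-2 microglobulin (B2m), and Nlrc5 is a transactivator of class I genes. Class II molecules pair an alpha and a beta chain (H2-Aa with H2-Ab1, or the beta chain H2-Eb1), are loaded with the help of the invariant chain Cd74, and show peptides from taken-up material to CD4 T cells. Their expression is driven by the transactivator Ciita and is held mainly by dendritic cells, B cells and macrophages, while interferon gamma raises both classes in many other cells, endothelium included. The upstream regions of both gene classes carry a conserved module of short elements, among them an X2 box bound by CREB/ATF factors and a Y box bound by NF-Y.

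RefSeq (build GRCm38.p6) gave the 250 bases before the transcription start of 6 members, H2-K1, H2-D1, H2-T23, B2m, H2-Aa and H2-Eb1. The regions of 4 are shown, 3 in which both an X2 and a Y match were found and H2-Eb1, in which only the Y match was: H2-D1 at chr17:35262844-35263093 (plus strand), B2m at chr2:122147437-122147686 (plus strand), H2-Aa at chr17:34287824-34288073 (minus strand) and H2-Eb1 at chr17:34305617-34305866 (plus strand). Each runs 5′ to 3′ towards the start. Capitals mark matches, on either strand, to CCAAT (the core of the Y box), TGACG (the core of the X2 box) and TTTC followed after any 2 bases by TTTC (an interferon-stimulated response element), and in H2-Aa 2 opposed TGACG matches overlap in 1 palindrome.
H2-D1: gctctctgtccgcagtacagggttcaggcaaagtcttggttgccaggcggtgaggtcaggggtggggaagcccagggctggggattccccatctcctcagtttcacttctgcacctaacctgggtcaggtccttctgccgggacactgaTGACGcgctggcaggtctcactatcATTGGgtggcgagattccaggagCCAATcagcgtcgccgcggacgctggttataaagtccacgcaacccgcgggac
B2m: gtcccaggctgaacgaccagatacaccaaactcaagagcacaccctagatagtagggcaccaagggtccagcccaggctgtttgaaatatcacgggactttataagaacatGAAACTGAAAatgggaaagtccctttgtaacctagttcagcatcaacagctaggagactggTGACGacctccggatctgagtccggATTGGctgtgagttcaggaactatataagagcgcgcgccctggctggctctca
H2-Aa: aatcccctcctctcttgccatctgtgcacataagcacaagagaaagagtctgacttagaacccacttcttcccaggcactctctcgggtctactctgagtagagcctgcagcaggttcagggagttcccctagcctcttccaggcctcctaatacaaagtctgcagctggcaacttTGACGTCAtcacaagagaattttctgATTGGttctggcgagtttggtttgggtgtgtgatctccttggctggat
H2-Eb1: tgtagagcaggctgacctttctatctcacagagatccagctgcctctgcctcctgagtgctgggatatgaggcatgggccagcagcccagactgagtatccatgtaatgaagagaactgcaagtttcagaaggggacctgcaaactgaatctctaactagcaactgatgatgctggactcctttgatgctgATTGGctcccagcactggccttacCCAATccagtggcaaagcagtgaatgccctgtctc
CCAAT was present in 6 of the 6 member genes, against 33.8% of all 32851 upstream regions of that length in the table. TGACG was present in 4 of the 6 (H2-K1, H2-D1, B2m and H2-Aa), against 17.8% of all regions. In these 4 genes a forward TGACG lay 25 bases (H2-K1, H2-D1, B2m) or 26 bases (H2-Aa) ahead of a reversed CCAAT, counted from first base to first base. Such a pair at that spacing was found in 27 of the 32851 regions, or 0.0822%, a search made after these sequences had been read. The spacing was taken from the members, whose own regions are among the 27, so this share is no independent background. The string searched for the interferon-stimulated element was present in B2m and H2-T23, against 2.98% of all regions. Looser forms of this element were not searched, so a region without the string may still carry one. A match is only a match of letters, and some genes have several start sites in the table.

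The arrays were alike in brightness, with median probe signals between 98.7 and 111.5, and detected between 16685 and 18210 probes each. Levels are normalized log2 signals, changes are log2 fold changes with their standard error (SE), and a change was called at a Benjamini-Hochberg adjusted p under 0.05 over 20312 probes (limma, two-sided). The labels number the hearts within a group and do not say whether equal numbers share a cage or day, so p-values measure the spread between these hearts. Flt1 checks the labels: its brighter probe read 10.79 to 10.91 in WT_Scramble and 8.19 and 8.46 in VEGFR1del_Scramble 1 and 2, but 11.56 in replicate 3 of that group. A dimmer Flt1 probe, detected on 6 of 12 arrays, read 5.32 to 5.58 in WT_Scramble and 4.36 and 4.69 in VEGFR1del_Scramble 1 and 2. In replicate 3 it read 6.25. It is not known if these probes read the deleted exons, and "the library labelled VEGFR1del_Scramble replicate 3" is used below for this array, with results given without it. In WT_VEGFB the brighter Flt1 probe read 11.51 and 11.22, and in VEGFR1del_VEGFB it read 8.93 to 9.47. The authors' deposited log2 values had been quantile normalized in 3 sets of arrays, which is seen from the values. The sets were WT_Scramble with VEGFR1del_Scramble 1 and 2 (5 arrays), VEGFR1del_Scramble 3 with WT_VEGFB (3 arrays), and VEGFR1del_VEGFB (4 arrays). What the sets were is not stated, and apart from the library labelled VEGFR1del_Scramble replicate 3, set and virus cannot be told apart. Under VEGF-B virus set and genotype cannot be told apart either, nor can set and group where VEGFR1del_VEGFB is compared with WT_Scramble or in the interaction.

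In hearts with both the deletion and VEGF-B, class I genes were about 2-fold higher than in wild-type hearts with scramble virus, and of the class II genes H2-Ab1 was. In this comparison (VEGFR1del_VEGFB against WT_Scramble) 6 of the 10 members rose and 0 fell, against 11.3% of all 14240 genes that rose. The 6 were all 5 class I members and H2-Ab1. Without the library labelled VEGFR1del_Scramble replicate 3 the count was 5 of 10, against 11.7%, and without VEGFR1del_VEGFB replicate 3 it was 5 of 9, against 9.72%, Nlrc5 being lost in both. The groups did not overlap for 8 of the 10 members, against 15.7% of all genes. By probe, 11 of 11 class I probes and 1 of 9 class II probes rose, against 10.3% of all probes. The median log2 change was 1.03 over the class I members and 0.83 over the 4 class II members other than Ciita, beside -0.03 over all genes. This comparison adds the effects of deletion and virus, and the 4 single comparisons below share its arrays.

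B2m, the light chain of all class I molecules, read 12.30, 12.22 and 12.50 in WT_Scramble, 12.70, 12.69 and 12.87 in VEGFR1del_Scramble, 13.23 and 12.77 in WT_VEGFB, and 13.23, 13.18, 13.93 and 13.08 in VEGFR1del_VEGFB. All 9 hearts of the other 3 groups lay above all 3 WT_Scramble hearts, and VEGFR1del_VEGFB replicate 3 was the highest. The change between VEGFR1del_VEGFB and WT_Scramble was 1.01 (SE 0.18), a 2.02-fold rise with a limma adjusted p of 0.00181. A second B2m probe rose by 1.25 (SE 0.16) in the same comparison.

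H2-D1, a classical class I heavy chain, read 10.98, 10.81 and 11.17 in WT_Scramble, 11.18, 11.28 and 11.57 in VEGFR1del_Scramble, 11.80 and 11.25 in WT_VEGFB, and 12.01, 11.91, 12.43 and 11.73 in VEGFR1del_VEGFB. The WT_Scramble hearts were the lowest, and the VEGFR1del_VEGFB hearts lay above both scramble groups but overlapped with WT_VEGFB. The rise over WT_Scramble was 1.03 (SE 0.18), or 2.05-fold, with an adjusted p of 0.00126, and its other tested probes rose by 1.01 and 0.86.

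H2-K1, the second classical heavy chain on these arrays, read 7.82, 7.55 and 8.02 in WT_Scramble, 7.82, 8.01 and 8.55 in VEGFR1del_Scramble, 8.58 and 8.08 in WT_VEGFB, and 9.00, 8.74, 9.48 and 8.45 in VEGFR1del_VEGFB. The VEGFR1del_VEGFB and WT_Scramble hearts did not overlap, and within VEGFR1del_Scramble the highest value was that of the library labelled replicate 3. The rise was 1.12 (SE 0.23), or 2.18-fold, with an adjusted p of 0.00426. A dimmer H2-K1 probe rose by 0.73 (SE 0.20).

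H2-T23, which encodes the non-classical chain Qa-1, read 8.94, 8.75 and 9.03 in WT_Scramble, 9.15, 9.14 and 9.49 in VEGFR1del_Scramble, 9.69 and 9.12 in WT_VEGFB, and 9.98, 9.73, 10.32 and 9.54 in VEGFR1del_VEGFB. Here too the WT_Scramble hearts were lowest of all 12. The rise was 0.99 (SE 0.18), or 1.98-fold, with an adjusted p of 0.00216. H2 class I genes are near-identical in sequence, so a probe may also read related transcripts, and the rises of H2-K1, H2-D1 and H2-T23 are not independent of one another.

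Nlrc5 read 5.75, 6.11 and 5.39 in WT_Scramble, 5.56, 6.04 and 6.13 in VEGFR1del_Scramble, 6.74 and 5.87 in WT_VEGFB, and 6.52, 7.00, 7.83 and 5.93 in VEGFR1del_VEGFB. The groups overlapped, since VEGFR1del_VEGFB replicate 4 lay below the second WT_Scramble heart. The rise of 1.07 (SE 0.35) passed narrowly, with an adjusted p of 0.049, and did not pass when the library labelled VEGFR1del_Scramble replicate 3 was left out, with an adjusted p of 0.0558, or when VEGFR1del_VEGFB replicate 3 was (0.73, adjusted p 0.105). Leaving out any other heart of the scramble groups, or VEGFR1del_VEGFB replicate 1 or 2, also ended the call, with adjusted p of 0.0544 to 0.168.

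**Figure D1:**
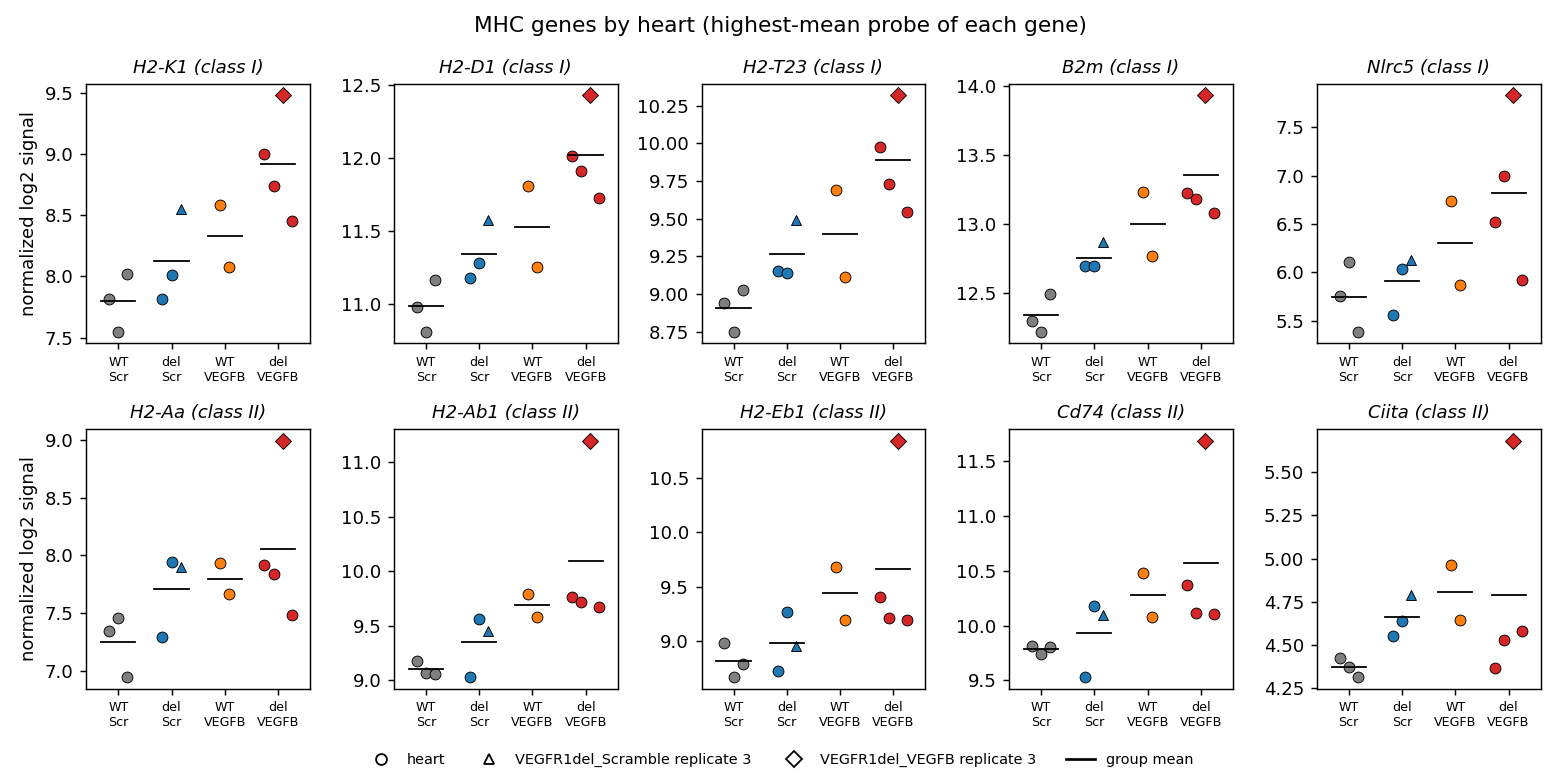
Normalized log2 signal of each MHC gene (vertical axis, own range in each panel) in the hearts of the 4 groups (horizontal axis), with 1 point per heart and a line at the group mean. The triangle is the library labelled VEGFR1del_Scramble replicate 3 and the diamond is VEGFR1del_VEGFB replicate 3, which is the highest of the 12 hearts for all 10 genes; Ciita was at background on 10 of 12 arrays.

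Among the class II members, H2-Ab1, the I-A beta chain, read 9.18, 9.07 and 9.06 in WT_Scramble, 9.03, 9.56 and 9.45 in VEGFR1del_Scramble, 9.80 and 9.58 in WT_VEGFB, and 9.77, 9.72, 11.20 and 9.68 in VEGFR1del_VEGFB. The hearts with VEGF-B lay above all scramble hearts in both genotypes, and replicate 3 of VEGFR1del_VEGFB stood 1.43 above the next heart of its group, a 2.70-fold gap. The rise over WT_Scramble was 0.99 (SE 0.29), or 1.98-fold, with an adjusted p of 0.0297. Without that heart it was smaller and more even between hearts, at 0.62 (SE 0.14) and an adjusted p of 0.00863. The call was lost when WT_Scramble replicate 1, 2 or 3 was left out, with adjusted p of 0.0633, 0.0831 and 0.0828. Its 2 other probes, with changes of 0.73 and 0.74, did not pass.

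H2-Aa, the alpha chain that pairs with H2-Ab1, read 7.35, 7.46 and 6.95 in WT_Scramble, 7.29, 7.94 and 7.90 in VEGFR1del_Scramble, 7.93 and 7.66 in WT_VEGFB, and 7.92, 7.84, 8.99 and 7.49 in VEGFR1del_VEGFB. The VEGFR1del_VEGFB hearts lay above WT_Scramble narrowly and overlapped with VEGFR1del_Scramble. The change was 0.81 (SE 0.28) with an adjusted p of 0.0613.

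H2-Eb1, the I-E beta chain, read 8.98, 8.67 and 8.79 in WT_Scramble, 8.72, 9.26 and 8.95 in VEGFR1del_Scramble, 9.68 and 9.19 in WT_VEGFB, and 9.41, 9.21, 10.85 and 9.19 in VEGFR1del_VEGFB. In both genotypes the VEGF-B hearts lay above WT_Scramble, and replicate 3 of VEGFR1del_VEGFB was 2.71-fold above the next heart of its group. The change against WT_Scramble was 0.85 (SE 0.32) with an adjusted p of 0.0794. C57BL/6 mice carry a defect in the I-E alpha gene and show no I-E protein, so the transcript of H2-Eb1 is read here without its surface product.

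Cd74, the invariant chain, read 9.82, 9.74 and 9.81 in WT_Scramble, 9.53, 10.18 and 10.10 in VEGFR1del_Scramble, 10.48 and 10.08 in WT_VEGFB, and 10.37, 10.12, 11.69 and 10.11 in VEGFR1del_VEGFB. The WT_Scramble hearts spanned less than 0.1, and replicate 3 of VEGFR1del_VEGFB was again highest. The change was 0.78 (SE 0.31) with an adjusted p of 0.093, and 0.41 (SE 0.17) without that heart, with an adjusted p of 0.12. The dimmest of the 3 Cd74 probes changed by 0.45, and its groups overlapped.

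Ciita was near background. Its brighter probe was detected on 2 of 12 arrays, WT_VEGFB replicate 1 (4.96) and VEGFR1del_VEGFB replicate 3 (5.68), and was not above background in any heart of either scramble group, where it read 4.32 to 4.79. No fold change of Ciita is reported as a result, because the lower group has only a bound and the ratio to that bound was under 1, and the medians and ranges given here leave it out. Its second probe was detected on 0 arrays. Of the other member probes, 1 for B2m and 1 for H2-D1 were detected on 0 arrays and 1 for H2-K1 was detected on 1 array.

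Ordered by group mean, 9 of the 10 members ran from WT_Scramble through VEGFR1del_Scramble and WT_VEGFB to VEGFR1del_VEGFB, against 13.3% of all genes. The exception was Ciita. For H2-D1 the means were 10.98 ± 0.18 (SD, n = 3), 11.34 ± 0.21 (n = 3), 11.53 ± 0.39 (n = 2) and 12.02 ± 0.30 (n = 4). For H2-Ab1 they were 9.10 ± 0.07, 9.35 ± 0.28, 9.69 ± 0.15 and 10.09 ± 0.74 over the same numbers of hearts. The order rests on means: the first and second groups, and the third and last, did not differ in the fit for any member, and the middle pair was not compared. Without VEGFR1del_VEGFB replicate 3 all 5 class I members kept the order, but of the 4 class II members still tested only H2-Ab1 did, against 12.9% of all genes.

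**Figure D2:**
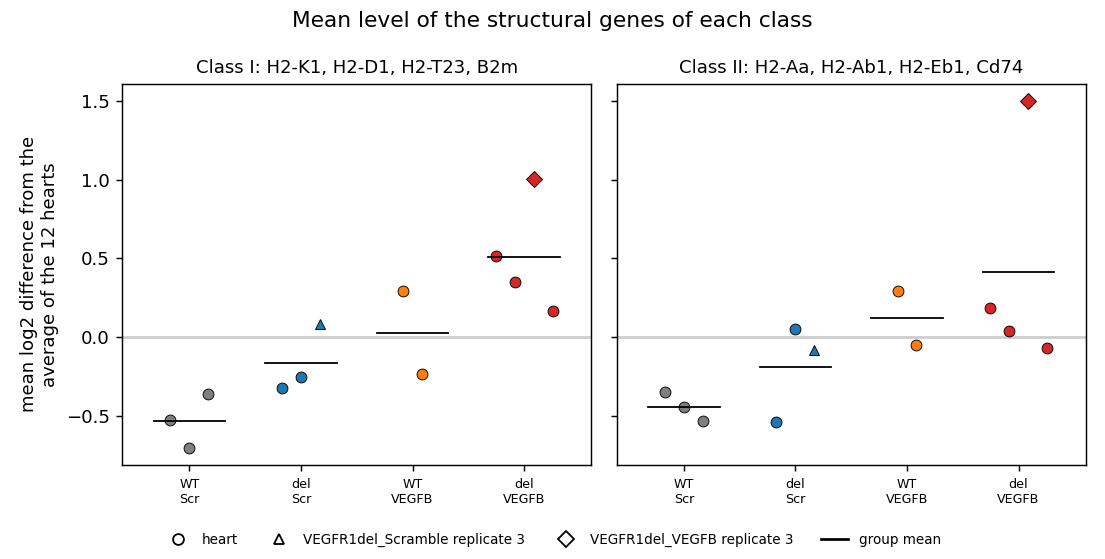
Mean log2 difference from the 12-heart average (vertical axis) over 4 structural class I genes (left) and 4 structural class II genes (right) for each heart of the 4 groups, with a line at the group mean. The class I means of VEGFR1del_VEGFB run from 0.16 to 1.00 and stand above WT_Scramble in every heart, while the class II mean of replicate 3 (1.5) stands apart from the 3 other hearts of its group (-0.07 to 0.18).

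VEGF-B in wild-type hearts gave differences of similar size in both classes, none of which passed. Of the 10 members 0 were called in limma at the adjusted threshold, against 1.6% of all genes called higher. An unadjusted limma p under 0.05 was found for 3 of the 10, and for 2143 of all 14240 genes. The log2 differences between WT_VEGFB and WT_Scramble ran from 0.49 to 0.66 over the 9 members other than Ciita, with a median of 0.54 over class I and 0.57 over class II, beside -0.02 over all genes. Both WT_VEGFB hearts lay above all 3 WT_Scramble hearts for 9 of the 10 members, against 17% of all genes, with Nlrc5 the exception; of the 9, Ciita was at background in WT_Scramble. The largest difference was that of B2m, at 0.66 (SE 0.22) with an adjusted p of 0.157, and it passed without VEGFR1del_VEGFB replicate 3, which narrows the spread shared by all groups (0.67, adjusted p 0.0482). That made it the 1 called member of 9, against 1.47% of all genes. Its second probe passed with all 12 arrays, at 0.81 (SE 0.19) and an adjusted p of 0.0489, the 1 of 20 member probes that did, against 1.42% of all probes. The 2 hearts differed from each other, replicate 1 being the higher for all 10 members. With the authors' normalization set as a fixed block, a fit that rests on the library labelled VEGFR1del_Scramble replicate 3, the differences ran from -0.10 (H2-K1) to 0.66 (H2-Eb1), and 0 passed (adjusted p 0.86 to 0.99).

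In VEGFR1-deleted hearts VEGF-B gave 0 called members of 10 in limma, against 2.49% of all genes called higher. An unadjusted limma p under 0.05 was found for 7 of the 10, and for 2832 of all 14240 genes. H2-D1 came closest, with 0.67 (SE 0.18) and an adjusted p of 0.0512, and of the 20 member probes 1 passed, the second for B2m, at 0.72 (SE 0.16) and an adjusted p of 0.0287, against 2.19% of all probes. The median was 0.67 over class I and 0.66 over class II without Ciita, beside -0.01 over all genes. The groups did not overlap for 4 members (H2-D1, H2-T23, B2m and H2-Ab1), against 8.98% of all genes. Without the library labelled VEGFR1del_Scramble replicate 3, which was the highest heart of its group for the 3 heavy chains and B2m, 3 members rose: H2-K1 by 1.00 (SE 0.24, adjusted p 0.031), H2-D1 by 0.79 (SE 0.20, adjusted p 0.0343) and H2-T23 by 0.74 (SE 0.20, adjusted p 0.0491), against 4.4% of all genes. Without VEGFR1del_VEGFB replicate 3 the class II differences shrank, from 0.74 to 0.37 for H2-Ab1, from 0.69 to 0.29 for H2-Eb1, from 0.63 to 0.26 for Cd74 and from 0.35 to 0.04 for H2-Aa. The class I differences without that heart were 0.61 for H2-K1, 0.54 for H2-D1, 0.49 for H2-T23 and 0.41 for B2m, and 0 of 9 members passed, against 0.773% of all genes.

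**Figure D3:**
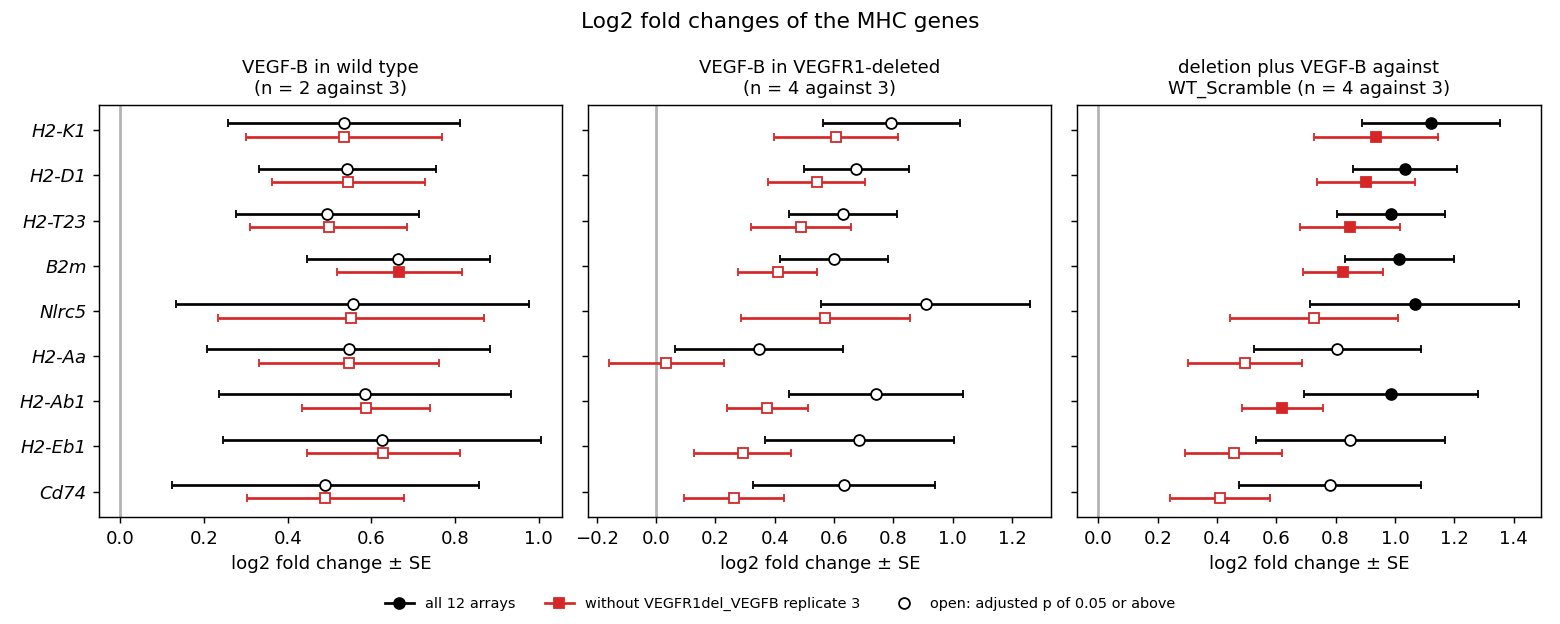
Log2 fold change with its SE (horizontal axis) of 9 MHC genes (vertical axis) for VEGF-B in wild-type hearts, VEGF-B in VEGFR1-deleted hearts, and deletion plus VEGF-B against WT_Scramble; black circles use all 12 arrays, red squares leave out VEGFR1del_VEGFB replicate 3, and filled marks passed an adjusted p of 0.05. All 5 class I genes and H2-Ab1 are filled in the right panel, and the class II marks move towards 0 without the heart left out.

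The deletion alone gave smaller differences. Between VEGFR1del_Scramble and WT_Scramble, Ciita left out, they ran from 0.15 (Cd74) to 0.46 (H2-Aa). Of the 10 members 0 were called in limma, where 0.0562% of all genes were called higher. An unadjusted limma p under 0.05 was found for 0 of the 10, and for 1580 of all 14240 genes. For H2-D1, H2-T23 and B2m the groups did not overlap, where 8.15% of all genes did not; the Ciita readings, all at background in both groups, are not counted. B2m differed by 0.42 (SE 0.20) with an adjusted p of 0.466. Without the library labelled VEGFR1del_Scramble replicate 3, when all arrays lie in the same normalization set, B2m differed by 0.35 (SE 0.22) and H2-K1 by 0.12 (SE 0.25). In hearts with VEGF-B virus, VEGFR1del_VEGFB against WT_VEGFB, 0 members were called. Of the 10, 3 had an unadjusted limma p under 0.05, as did 1512 of all 14240 genes. The widest difference was 0.59 (SE 0.26) for H2-K1, with an adjusted p of 0.457, and here 0% of all genes were called higher. The groups did not overlap for 0 members, against 11% of all genes. H2-Aa, H2-Eb1 and Cd74, higher by 0.26, 0.22 and 0.29, were lower by 0.05, 0.17 and 0.08 without VEGFR1del_VEGFB replicate 3, and in neither case did they pass.

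Whether VEGF-B acted differently in the 2 genotypes was tested directly as an interaction. Of the 10 members 0 were called in limma, as 0% of all genes were called higher. An unadjusted limma p under 0.05 was found for 0 of the 10, and for 681 of all 14240 genes. The interaction was -0.07 (SE 0.28) for B2m, 0.13 (SE 0.28) for H2-D1, 0.26 (SE 0.36) for H2-K1 and 0.16 (SE 0.46) for H2-Ab1. The standard errors are as large as or larger than these estimates, so differences of that size were not detectable with these hearts.

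Genes of the class I peptide loading machinery were read between VEGFR1del_VEGFB and WT_Scramble. In that comparison 11.3% of all genes rose, and 9.72% without VEGFR1del_VEGFB replicate 3. Of 11 tested loading genes 6 rose and 0 fell, with a median of 0.59 and a range of -0.22 to 0.91, and 9 lay above 0. Tap2 and Tap1, the subunits of the transporter that carries peptides into the endoplasmic reticulum, rose by 0.73 (SE 0.13) and 0.86 (SE 0.23). The immunoproteasome subunits Psmb8 and Psmb10 rose by 0.91 (SE 0.22) and 0.64 (SE 0.16). Of 11 other class I genes 6 rose and 0 fell, with a median of 0.57, led by H2-T10 at 1.10 (SE 0.19), H2-Q7 at 1.36 (SE 0.24), H2-Q5 at 0.88 (SE 0.17) and H2-Q8 at 1.08 (SE 0.24). These may share transcript sequence with the member probes. Without VEGFR1del_VEGFB replicate 3, 5 loading genes and 6 other class I genes rose. VEGF-B alone gave 0 called genes of either list in either genotype with all 12 arrays. It gave 1 in VEGFR1-deleted hearts without the library labelled VEGFR1del_Scramble replicate 3, H2-Q5, at 0.77 (SE 0.19), where 4.4% of all genes rose.

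Of 10 tested accessory genes of class II, 1 rose and 0 fell, where 11.3% of all genes rose. The median was 0.15 over the 9 that were above background in WT_Scramble. Whether class II differed from class I in its response was not tested. The riser was H2-Oa, a chain of the H2-O heterodimer that restrains peptide exchange, at least 1.07-fold higher and not above background in WT_Scramble. It passed the detection filter only through hearts with VEGF-B virus. Its limma adjusted p of 0.0458 compares with readings at background, not with that bound, so the call adds no support. Without VEGFR1del_VEGFB replicate 3 the count was 0, as it was without the library labelled VEGFR1del_Scramble replicate 3. H2-DMa, part of the H2-M peptide exchanger, changed by 0.75 (SE 0.30, adjusted p 0.0985) and Ifi30, a lysosomal thiol reductase, by 0.46 (SE 0.16, adjusted p 0.0607). Of 5 costimulation genes 1 rose, Cd40, by 0.95 (SE 0.15). Of 5 tested subunits of the RFX, NF-Y and CREB complexes that hold the promoter module, 0 changed, with a median of -0.11. The array held 7 such genes, of which 3 were detected on all 12 arrays and Rfx5 on 0. The complexes were therefore read only in part.

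Genes of interferon signalling and response were read in the same comparison, where 11.3% of all genes rose, and 9.72% without VEGFR1del_VEGFB replicate 3. Of 12 tested signalling genes 8 rose and 0 fell, among them Irf1 by 0.86 (SE 0.16), the receptor chain Ifngr1 by 0.56 (SE 0.11), Stat2 by 0.89 (SE 0.17) and Irf9 by 0.81 (SE 0.17). Of 11 interferon gamma targets 5 rose and 0 fell, with Gbp2 at 1.09 (SE 0.25), Gbp3 at 0.97 (SE 0.23), the chemokine Cxcl9 at 1.32 (SE 0.41) and Irgm1 at 0.51 (SE 0.16), and 3 of 10 rose without VEGFR1del_VEGFB replicate 3. Of 13 type I interferon targets 10 rose and 0 fell, with a median of 1.20, among them Oasl2 by 1.30 (SE 0.16), Isg15 by 1.45 (SE 0.20), Usp18 by 1.37 (SE 0.20) and Ifit2 by 1.20 (SE 0.19). Many of these genes answer to both kinds of interferon. Ifng itself was detected on 1 array, VEGFR1del_VEGFB replicate 3, a gene named after its values were seen, and about 1 in 20 probes without signal pass that detection threshold on any array.

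The heart with the highest MHC levels was read against the lists. In VEGFR1del_VEGFB replicate 3 the mean over the 11 interferon gamma targets stood 1.31 above the 12-heart average, where the other 3 hearts of its group stood at -0.07 to 0.21. The T and NK cell list stood at 0.85 there against 0.03 to 0.12, but 3 of its 10 genes passed the detection filter only through that heart, and over the other 7 it stood at 0.76 against 0.08 to 0.11. For the 10 interferon gamma targets that pass without that heart the mean was 1.23. The pan-leukocyte list stood at 0.90 there against 0.02, 0.07 and 0.60. The type I interferon targets did not set it apart, at 0.66 against 0.60, 0.56 and 0.20. The erythroid genes were lowest in that heart, at -0.77. Their part in the class II level of this heart was not tested.

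**Figure D4:**
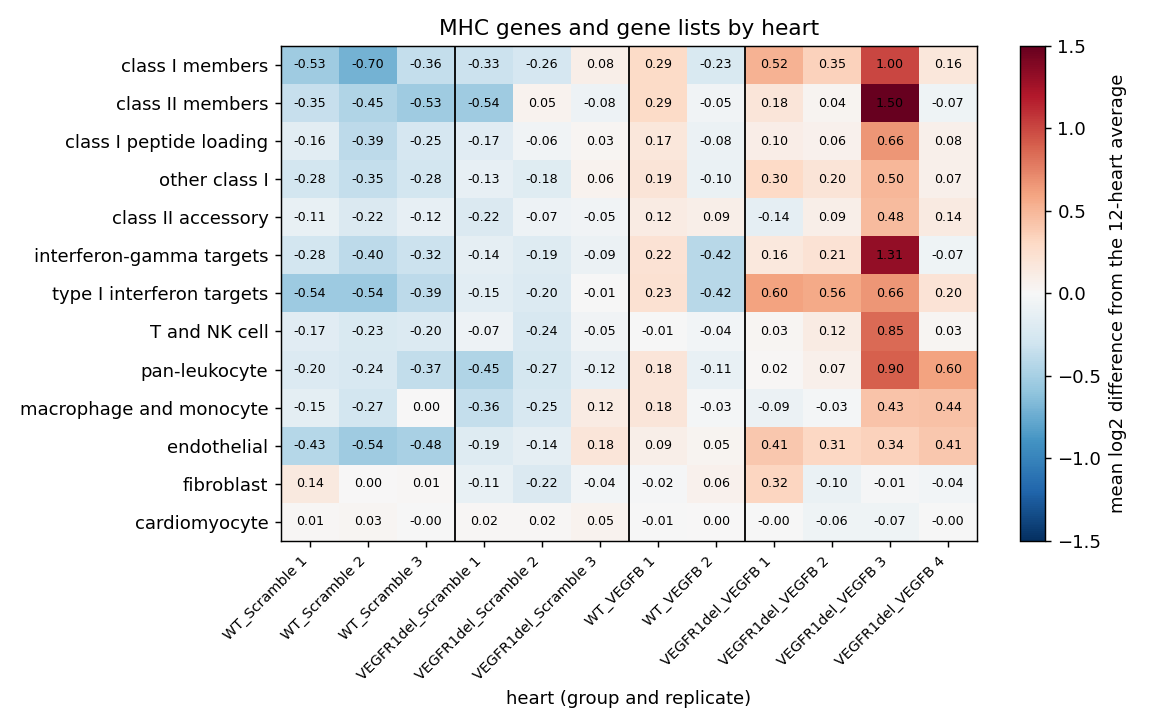
Mean log2 difference from the 12-heart average (colour and printed value) of the MHC genes and of gene lists (rows) in each heart (columns), with lines between the 4 groups. VEGFR1del_VEGFB replicate 3 carries the highest values of class II (1.5), interferon gamma targets (1.31) and T and NK cell genes (0.85), whereas the endothelial list runs from -0.54 to -0.43 in WT_Scramble to 0.31 to 0.41 in VEGFR1del_VEGFB and the cardiomyocyte list stays between -0.07 and 0.05.

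In whole hearts, more cells of a type and more RNA per cell cannot be told apart, so markers of the cells that carry MHC molecules were read beside the members. Of 11 dendritic cell markers on the array 6 were detected on 0 arrays, among them Itgax, Flt3 and Xcr1. Zbtb46 was the only 1 of the 11 detected on all 12 arrays, so the list rests largely on this gene. Whether dendritic cells changed was not tested. With all 12 arrays 0 of the 2 tested changed, with Zbtb46 at 0.57 (SE 0.19, adjusted p 0.055). With VEGFR1del_Scramble replicate 3 dropped from the fit, 1 of these 2 passed against WT_Scramble (limma adjusted p 0.0152), where 11.7% of all genes rose. In that fit 1 also passed for VEGF-B in VEGFR1-deleted hearts (limma adjusted p 0.0186), where 4.4% of all genes rose. With VEGFR1del_VEGFB replicate 3 dropped instead, only 1 was tested, and it did not pass against WT_Scramble (adjusted p 0.0617). Of 8 B cell markers 5 were detected on 0 arrays, among them Ms4a1 and Pax5, and of the 3 tested 0 changed. Their summed signals ranged from 83.5 to 97.8 (dendritic cell) and 96.8 to 98.5 (B cell) in WT_Scramble, and from 107 to 144 and 78.3 to 149 in VEGFR1del_VEGFB. Batf3 of the first list, and Fcrla and Ly6d of the second, were not above background in any scramble heart. They passed the filter only through hearts with VEGF-B virus, so both sums hold background readings and add no support. Macrophage and monocyte markers were detected more widely, 13 of 17 on all 12 arrays. Of 16 tested, 4 rose and 0 fell against WT_Scramble (Mertk by 0.57, Lgals3 by 1.24, Plac8 by 1.13 and C1qa by 0.62), with a median of 0.30. In that comparison 11.3% of all genes rose. Without VEGFR1del_VEGFB replicate 3 the count was 3, where 9.72% of all genes rose. Their summed signal ranged from 3366 to 4191 in WT_Scramble, 3120 to 4548 in VEGFR1del_Scramble, 3880 to 4909 in WT_VEGFB and 3792 to 6452 in VEGFR1del_VEGFB.

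Of 10 tested T and NK cell markers 2 rose against WT_Scramble, where 11.3% of all genes rose. They were Ccl5 by 1.49 (SE 0.36), detected in 1 of 3 WT_Scramble hearts, and Cd3d, at least 1.22-fold higher (limma adjusted p 0.0487). Of the 10, 5 were not above background in any WT_Scramble heart, Cd3d among them, and its fold is taken over the lowest signal of detected probes. Cd3d passed the filter only through hearts with VEGF-B virus, and its p-value compares with readings at background, so its call adds no support. The count was 1 without the library labelled VEGFR1del_Scramble replicate 3, where 11.7% of all genes rose. It was 2 of 7 without VEGFR1del_VEGFB replicate 3, where 9.72% rose. Cd4 and Cd8a were detected on 0 arrays. The summed T and NK signal ranged from 1160 to 1293 in WT_Scramble, 1208 to 1243 in VEGFR1del_Scramble, 1237 to 1278 in WT_VEGFB and 1292 to 1749 in VEGFR1del_VEGFB. Cd8b1 was the brightest of the 10, with a mean log2 signal of 9.59 in WT_Scramble, and Prf1 was next at 7.84. The sum therefore rests mainly on these genes. Cd8b1 did not pass against WT_Scramble (limma adjusted p 0.408). Of 5 pan-leukocyte genes 3 rose (Cd52 by 1.24, Laptm5 by 0.60 and Coro1a by 0.91), 1 did so without VEGFR1del_VEGFB replicate 3, and Ptprc was detected on 0 arrays. Of 3 neutrophil genes 2 rose, S100a8 by 1.59 (SE 0.31) and S100a9 by at least 2.32-fold (limma adjusted p 0.000361). S100a9 was not above background in any scramble heart and passed the filter only through hearts with VEGF-B virus. Its p-value compares with readings at background, not with that bound, so its call adds no support.

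Endothelial genes are those of the cell type in which Flt1 was to be deleted. Of 12 tested 10 rose and 0 fell against WT_Scramble, with a median of 0.91, where 11.3% of all genes rose. Among the 10 were Cd93 by 1.21 (SE 0.12), Esam by 1.12 (SE 0.12), Egfl7 by 1.08 (SE 0.12) and Cdh5 by 1.25 (SE 0.14). With VEGF-B 5 rose in wild-type hearts and 7 in VEGFR1-deleted hearts, against 1.6% and 2.49% of all genes. In VEGFR1-deleted hearts the count was 1 without VEGFR1del_VEGFB replicate 3, against 0.773% of all genes. It was 9 when the library labelled VEGFR1del_Scramble replicate 3 was left out, against 4.4%. For the deletion 0 of 12 were called in limma under either virus, with medians of 0.48 (scramble) and 0.30 (VEGF-B). Their summed signal ranged from 15545 to 16842 in WT_Scramble, 20706 to 27515 in VEGFR1del_Scramble, 25394 to 26124 in WT_VEGFB and 31208 to 32781 in VEGFR1del_VEGFB. The ranges of VEGFR1del_Scramble and WT_VEGFB overlapped only through the library labelled VEGFR1del_Scramble replicate 3. The defining genes of the organ were present, with 8 of 8 cardiomyocyte markers on all 12 arrays. Of those 8 only Pln changed against WT_Scramble, falling by 0.36, and of 6 fibroblast genes 1 rose and 2 fell. Without VEGFR1del_VEGFB replicate 3, 0 of the 8 changed, and of the 6 fibroblast genes 0 rose and 1 fell. The part of endothelial, leukocyte and interferon genes in the MHC levels was not tested.

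The genes whose pattern over the 12 arrays was most like that of the class I chains and B2m were sought among 1730 variable genes. They were H2-Q5 (Pearson r 0.980, Spearman rho 0.979), H2-T10 (r 0.976, rho 0.958), Lgals3bp (r 0.975, rho 0.986), Slc15a3 (r 0.975, rho 0.958) and Cxcl16 (r 0.973, rho 0.965). Without the 2 hearts farthest from the median the same values of r were 0.945 to 0.991. For the class II chains and Cd74 they were H2-DMa (r 0.947, rho 0.867), Ccl4 (r 0.941, rho 0.727), Cxcl9 (r 0.941, rho 0.727), Cd72 (r 0.934, rho 0.902) and Itgb7 (r 0.931, rho 0.748). Here r without the 2 farthest hearts fell to 0.664 for Itgb7, 0.684 for Ccl4, 0.779 for H2-DMa and 0.887 for Cxcl9, and was 0.949 for Cd72. Where r fell, it rested in part on VEGFR1del_VEGFB replicate 3 and VEGFR1del_Scramble replicate 1. These correlations describe arrays that share groups and normalization.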

How the data were processed

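Heart RNA of 12 mice was labelled as biotin cRNA and read on bead arrays, 1 per heart, per the labels' protocols. The authors deposited a table of non-normalized probe intensity with a detection p-value beside each intensity, per the file headers, and a table of log2 values whose normalization is not given in the sources used here. Intensities were background corrected from the detection p-values and quantile normalized with neqc (limma 3.58.1, R 4.3.3, offset 16). Probes with a detection p under 0.05 on at least 2 arrays were kept, 20312 of 45281. Of all probes 34885 had 1 symbol in the platform annotation, 18 had several and 10378 had none. A gene is represented by its tested probe of highest mean, and the 14240 genes counted include unnamed probes. Group means were estimated from all 12 arrays together in limma (lmFit, then eBayes). Within each of 6 comparisons p-values were adjusted over all tested probes. The number of arrays limits the precision.

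The members and gene lists were chosen with earlier results of these data known. Named were all members, Flt1, up to 4 genes of smallest p from each list, and the 5 genes most like each class with an SD of at least 0.3 over the arrays. List genes that were not detected, Ifng, Cd8b1 and Prf1 were named after their values were seen. Fits were tested on simulated data. Alternatives changed background correction, offset, scaling, filter, probe choice, variance model, array weights, table, arrays in the fit, blocks and threshold, and left out each array. Equal replicate numbers did not pair the hearts: over 15 pairs of equal number in different groups the deviations from the group means correlated at -0.036 to 0.097. Plots came from matplotlib 3.10.9 under Python 3.11.15. The result of 1 further motif search is not reported here.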

Additional observations from a re-analysis of the deposited data

Results flagged for a closer look

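Among the 4 VEGFR1del_VEGFB hearts, replicate 3 stood apart from the other hearts for 4 class II genes, its gap to the next heart taking a larger share of the group's range than Dixon's 95% critical value. It read 11.2 for H2-Ab1 (gap 0.939 of the range), 10.85 for H2-Eb1 (0.87), 11.69 for Cd74 (0.834) and 5.681 for Ciita (0.838). Chance flags about 1 in 20 groups, and the 4 values come from the same heart, so they are not independent. In that heart H2-Aa had a gap of 0.715 of the range. H2-K1, H2-D1, H2-T23 and Nlrc5 had gaps of 0.436 to 0.593. None of these exceeded the critical value. The gap of B2m, a class I member, equalled the critical value after rounding, so B2m lay at the limit and was not flagged. Ciita passed the detection filter only with that heart, and the other 3 hearts of its group were at background, so its gap adds no support. The cause was not tested.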

How the results depend on the processing

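The rises of H2-K1, H2-D1, H2-T23 and B2m between VEGFR1del_VEGFB and WT_Scramble were called under every alternative run. For that comparison the count of called members ranged from 4 to 7 when 1 array was left out (4 without WT_Scramble replicate 1, 7 without VEGFR1del_VEGFB replicate 4). For VEGF-B in VEGFR1-deleted hearts the count of 0 became 4 with no background correction, an offset of 50, median scaling, the authors' deposited log2 values or a threshold of 0.10. The calls over all probes rose as well, from 735 to 1333 with median scaling and to 2195 in the deposited values. For VEGF-B in VEGFR1-deleted hearts the count of members became 1 in other settings, as follows. It became 1 with a detection p under 0.01 on 3 arrays, 1 probe per gene, array weights, or without both VEGFR1del arrays numbered 3. It ranged from 0 to 3 when 1 array was left out (3 without VEGFR1del_Scramble replicate 3 or VEGFR1del_VEGFB replicate 4). For VEGF-B in wild-type hearts it ranged from 0 to 1, and was 1 without both arrays numbered 3. With the replicate block, whose numbers do not pair the hearts, 1 member was called for VEGF-B in wild-type hearts, 4 for VEGF-B in VEGFR1-deleted hearts and 9 for VEGFR1del_VEGFB against WT_Scramble. No share of all genes stands beside the counts of this paragraph, so they do not show a change particular to the members.

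Values that changed sign were not called. With the normalization set as a fixed block, H2-K1 under VEGF-B in wild-type hearts was -0.0988; that fit could not be estimated for comparisons other than this and the deletion under scramble virus. For VEGFR1del_VEGFB against WT_VEGFB, Ciita was 0.0139 with an offset of 50 and 0.0025 in the deposited log2 values. Ciita readings here are near background and estimate no change. Without both arrays numbered 3 it was -0.0514 for H2-Aa, -0.1715 for H2-Eb1 and -0.0799 for Cd74, and the interaction was -0.1597 for H2-Ab1, -0.3496 for H2-Eb1 and -0.1465 for Cd74. Leaving out 1 array gave, for VEGFR1del_VEGFB against WT_VEGFB, -0.0509 to 0.4505 for H2-Aa, -0.1716 to 0.4673 for H2-Eb1, -0.0801 to 0.4914 for Cd74 and -0.176 to 0.1237 for Ciita. It gave interactions of -0.1463 to 0.4086 for H2-D1, -0.1506 to 0.4196 for H2-T23, -0.2972 to 0.1658 for B2m, -0.0795 to 0.7865 for Nlrc5, -0.2121 to 0.295 for H2-Ab1, -0.3365 to 0.3029 for H2-Eb1 and -0.2276 to 0.3436 for Cd74, and -0.0238 to 0.337 for Nlrc5 under the deletion with scramble virus. The causes were not tested.

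Median scaling moved the median of all probes by 0.129 for VEGF-B in wild-type and 0.127 in VEGFR1-deleted hearts. The probes called were 336, 735 and 3940 for VEGF-B in wild-type hearts, VEGF-B in VEGFR1-deleted hearts and both changes against WT_Scramble, of which 86%, 60.4% and 53% were higher. They were 668, 1333 and 2976 with median scaling (96.9%, 95.4% and 81.9% higher), and 655, 2195 and 4753 in the deposited values (91.3%, 86.2% and 79% higher). For the deletion under scramble virus they were 13, and 102 in the deposited values, and under VEGF-B virus 0, with 3 and 107. Groups of 2 to 4 hearts limit all comparisons, and probes near background, Ciita above all, carry little signal.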
